A study of Mus musculus with 8 samples.

Results

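The Wnt ligands, receptors and modulators of mouse were followed through neural differentiation of embryonic stem cells. They were the 53 genes, of 55078 gene symbols in the expression table, whose symbols name a Wnt, frizzled, Lrp5 or Lrp6, Sfrp, Frzb, Dkk, R-spondin, Lgr4 to Lgr6, Axin, Lef1 or Tcf gene. By role they were 19 ligands, 10 frizzled receptors, the 2 Lrp co-receptors, 4 R-spondins with their 3 Lgr receptors, 5 secreted frizzled-related proteins, 4 Dickkopf proteins, 2 Axins and 4 Tcf/Lef factors. Membership went by symbol and by no cut on a measured value, but the genes were chosen with earlier results of these data known.

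Wnt proteins are lipid-modified secreted signals that bind a frizzled receptor together with Lrp5 or Lrp6. Binding takes Axin to the membrane and stops the destruction of beta-catenin, which enters the nucleus and turns Tcf/Lef factors into activators of their targets. Secreted frizzled-related proteins bind Wnts outside the cell, Dickkopf proteins occupy the Lrp co-receptors, and R-spondins acting through Lgr receptors keep frizzled at the surface. In mouse embryonic stem cells the pathway is known for holding the naive state, and in the embryo it opposes anterior neural fate and later patterns the dorsal and posterior neural tube.

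The study asked how losing Dip2c, which encodes a disco-interacting protein, affects neural differentiation. Messenger RNA was sequenced in 8 libraries of 46C cells, a mouse embryonic stem cell line known for its Sox1-GFP reporter. In the KSR series cells with the Dip2c deletion (KO) and cells labelled wild type (WT) were induced for 4 days in KSR medium and set against proliferating cells in stem cell medium at day 0. In the N2B27 series KO and WT cells were induced for 6 days in N2B27 medium and again set against their own day 0 libraries in stem cell medium. Every combination of label, series and day was 1 library, so in comparisons of conditions the KO and the WT library stood as replicates (n = 2), and nothing in the labels says that they came from separate cultures. P-values therefore measure the spread between these libraries, which may be technical. Medium and day of induction changed together between the series and cannot be told apart. The column of the WT library at N2B27 day 6 is named day 7. For 4 of the 8 samples the free-text description names another library of the set than the title does, and the titles, which match the genotype and medium labels, were followed. The labels give neither how the deletion was made nor whether the KO cells are 1 clone.

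Deposited FPKM (fragment counts scaled to transcript length and library size) summed to 508556 to 635836 in a library, and 13451 to 14329 genes reached 1 FPKM. Relative depth, read from the steps between low values, lay between 0.973 and 1.16 times that of the WT library at KSR day 0. Dip2c itself did not separate the labels, with 4.43 FPKM in KO and 4.86 in WT at KSR day 4, 4.43 FPKM in KO and 5.78 in WT at N2B27 day 6, 3.33 FPKM in KO and 3.69 in WT at KSR day 0 and 2.91 FPKM in KO and 2.74 in WT at N2B27 day 0. KO and WT therefore name the label of a library here and not a measured loss of Dip2c RNA. Whether the fragments counted for Dip2c come from outside the deleted part was not tested. The induced libraries carried the markers of neural progenitors (summed level of 4 genes, 239 FPKM in KO and 282 in WT at KSR day 4, and 319 FPKM in KO and 328 in WT at N2B27 day 6, against at most 11.6 FPKM at day 0). Day 0 libraries carried those of pluripotent cells (5 genes), which summed to 118 FPKM in KO and 68.7 in WT at KSR day 4 and 14.1 FPKM in KO and 48.7 in WT at N2B27 day 6, against 1673 FPKM in KO and 1964 in WT at KSR day 0 and 1609 FPKM in KO and 1924 in WT at N2B27 day 0. Induced libraries also held endoderm markers (4 genes, 127 FPKM in KO and 212 in WT at N2B27 day 6) and fibroblast and smooth muscle markers (4 genes, 215 FPKM in KO and 110 in WT at N2B27 day 6), none of them at 0 in all libraries. Of the endoderm sum, Cxcr4 alone held 91.5 FPKM in KO and 109 in WT at N2B27 day 6. In these bulk samples fewer cells of a type and less RNA per cell cannot be told apart.

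The summed level of the Wnt genes was higher in every induced library than in any day 0 library. The 53 genes summed to 991 FPKM in KO and 1049 FPKM in WT at KSR day 4 and to 827 FPKM in KO and 1209 FPKM in WT at N2B27 day 6. At day 0 the sums were 344 FPKM in KO and 321 FPKM in WT in the KSR series, and 379 FPKM in KO and 346 FPKM in WT in the N2B27 series. Of the 53 genes, 31 to 38 reached 1 FPKM in an induced library and 21 or 22 in a day 0 library.

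The test took in genes with at least 1 FPKM in at least 2 libraries, which were 39 of the 53. Among the 14 left out were 7 ligands, Wnt2, Wnt2b, Wnt8b, Wnt9b, Wnt10a, Wnt10b and Wnt16, whose highest value in any library was 0.836 FPKM, and Dkk4 was listed at 0 in all 8. Lgr5, a receptor for R-spondins and a marker of intestinal stem cells, reached 2.58 FPKM in WT at N2B27 day 6 but stayed under 1 FPKM elsewhere. Dkk2, Rspo2, Rspo3, Rspo4 and Lgr6 made up the rest. A further 15 of the 39 were under 1 FPKM in all day 0 libraries and entered through the induced ones, so a share of the tested genes that rose is no evidence by itself.

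**Figure D1:**
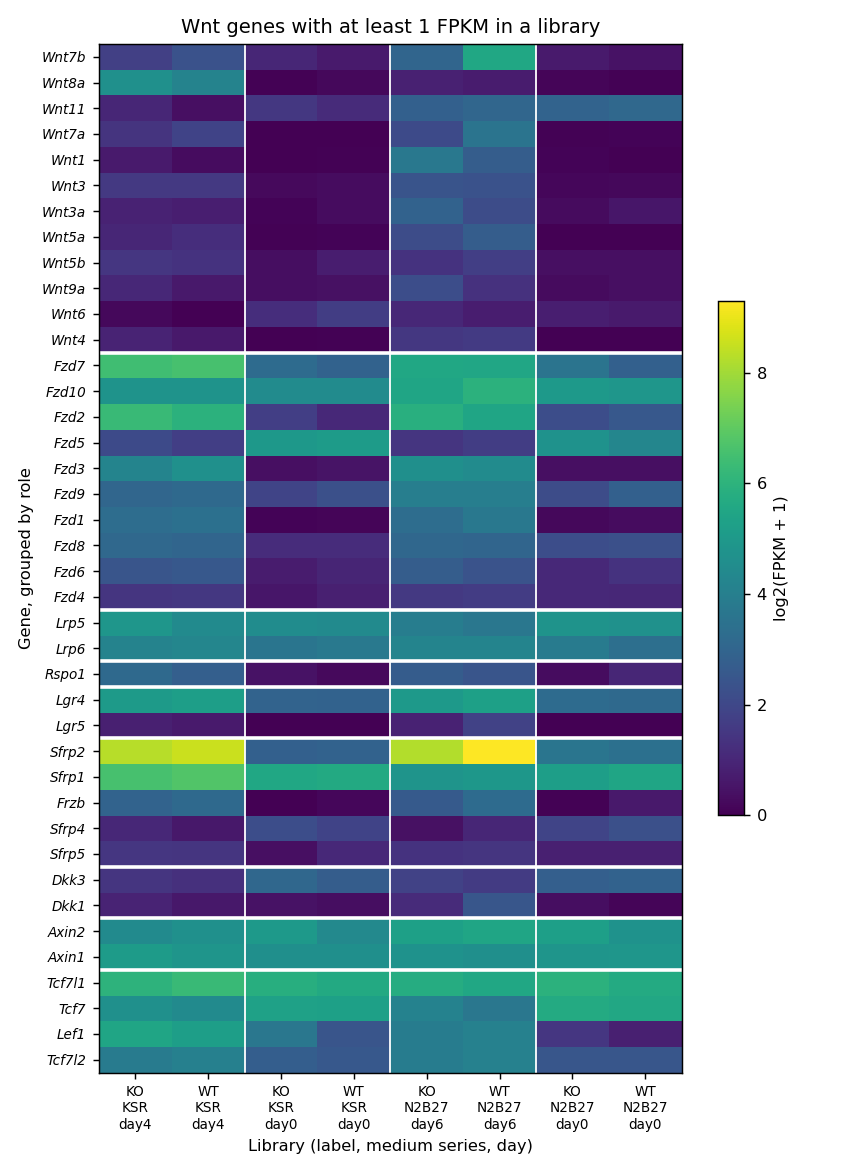
Level of the 40 Wnt genes that reached 1 FPKM in a library, as log2(FPKM + 1) by colour, with genes in rows grouped by role and the 8 libraries in columns (KO left of WT). Dark cells are low and yellow cells high: Sfrp2 is brightest in the 4 induced libraries, Fzd5 is brighter at day 0, and most ligands are dark at day 0.

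Between KSR day 4 and KSR day 0, 24 of the 39 tested Wnt genes rose and 5 fell, when 28.5% of all 15965 tested genes rose and 20.0% fell (limma on log2(FPKM + 1), Benjamini-Hochberg adjusted p under 0.05). Between N2B27 day 6 and N2B27 day 0, 27 rose and 6 fell, against 29.7% and 26.2% of all tested genes. The median fitted change of the 39 was 0.87 in KSR and 1.45 in N2B27 on the log2 scale, and that of all tested genes 0.08 and 0.04. In both media 21 Wnt genes rose and 4 fell (Dkk3, Fzd5, Sfrp4 and Tcf7), 1 gene (Sfrp1) rose in KSR and fell in N2B27, and 3 (Axin2, Tcf7l1 and Wnt11) passed in neither. The share of all tested genes that moved alike in both media was not computed, so nothing is read from these joint counts. Of the 21, Frzb, Fzd1, Fzd3, Rspo1, Wnt3, Wnt4, Wnt5a, Wnt5b, Wnt7a and Wnt8a entered the test only through induced libraries. Fitted changes on this scale understate those of low genes.

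Ligands were scarce in the stem cells and higher in sum after induction. The 19 ligands together held 38.5 FPKM in KO and 31.7 in WT at KSR day 4, against 5.78 FPKM in KO and 6.54 in WT at KSR day 0. In N2B27 they held 53.3 FPKM in KO and 92.3 in WT at N2B27 day 6, against 9.38 FPKM in KO and 10.5 in WT at N2B27 day 0. Every induced library was above every day 0 library. For the 10 frizzled receptors the sums were 241 FPKM in KO and 242 in WT at KSR day 4, against 67.8 FPKM in KO and 69.7 in WT at KSR day 0, and 211 FPKM in KO and 213 in WT at N2B27 day 6, against 81.1 FPKM in KO and 71.4 in WT at N2B27 day 0. FPKM is per length, so levels can be set side by side between genes. Of the 12 tested ligands 6 rose and 1 fell in KSR, and 10 rose and 0 fell in N2B27, against 28.5% up and 20.0% down of all tested genes in KSR and 29.7% and 26.2% in N2B27. Nothing can be read from these counts, since the 10 that rose in N2B27 were under 1 FPKM in all day 0 libraries and entered the test only through induced ones.

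Wnt8a, known from the primitive streak and the early hindbrain of mouse embryos, was the leading ligand of KSR cells. It held 24.5 FPKM in KO and 16.7 in WT at KSR day 4, against 0.0488 FPKM in KO and 0.142 in WT at KSR day 0. That was 63.6% of all ligand FPKM in KO and 52.6% in WT. Wnt8a passed the filter only through the KSR day 4 libraries, so its separation from day 0 is no evidence by itself. The fitted change was 4.28 ± 0.22 (adjusted p = 2.53e-05). In N2B27 Wnt8a stayed low, with 0.829 FPKM in KO and 0.651 in WT at N2B27 day 6, against 0.0818 FPKM in KO and 0.0439 in WT at N2B27 day 0, a change of 0.71 ± 0.22 (adjusted p = 0.0305).

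In N2B27 the leading ligand differed between the labels, with Wnt1 first in KO (22.6% of ligand FPKM) and Wnt7b first in WT (49.6%). Wnt1, the signal of the midbrain-hindbrain boundary and dorsal midline, stood at 12.0 FPKM in KO and 5.63 in WT at N2B27 day 6, against 0.0575 FPKM in KO and 0 in WT at N2B27 day 0. The change was 3.17 ± 0.28 (adjusted p = 0.000138), but Wnt1 passed the filter only through the N2B27 day 6 libraries, as did Wnt3a. Wnt3a, made by the cortical hem, the roof plate and the tail bud, went the same way (6.49 FPKM in KO and 3.42 in WT at N2B27 day 6, against 0.195 FPKM in KO and 0.470 in WT at N2B27 day 0), with a change of 2.12 ± 0.29 (adjusted p = 0.000925). In WT at N2B27 day 6 both lay below Wnt7b, Wnt7a, Wnt11 and Wnt5a. In KSR Wnt1 held 0.591 FPKM in KO and 0.246 in WT at KSR day 4, against 0 FPKM in KO and 0.0333 in WT at KSR day 0. Neither gene passed there, at 0.47 ± 0.28 for Wnt1 (adjusted p = 0.202) and 0.66 ± 0.29 for Wnt3a.

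Wnt7b, a ligand of forebrain neurons that also acts on brain vessels, had the highest level of any Wnt ligand and the largest difference within a pair of KO and WT libraries. It held 7.07 FPKM in KO and 45.8 in WT at N2B27 day 6, against 0.574 FPKM in KO and 0.379 in WT at N2B27 day 0. Its change of 3.72 ± 0.64 passed (adjusted p = 0.00260), and was 2.47 without the WT day 6 library. Its close relative Wnt7a stood at 3.26 FPKM in KO and 11.0 in WT at N2B27 day 6, against 0.0418 FPKM in KO and 0.0673 in WT at N2B27 day 0, and in KSR at 1.62 FPKM in KO and 2.62 in WT at KSR day 4, against 0.0248 FPKM in KO and 0 in WT at KSR day 0. Wnt7a rose in both media, by 2.76 ± 0.37 in N2B27 (adjusted p = 0.000932) and by 1.61 ± 0.37 in KSR (adjusted p = 0.0114), while Wnt7b did not pass in KSR, where it held 2.40 FPKM in KO and 4.09 in WT at KSR day 4, against 0.987 FPKM in KO and 0.613 in WT at KSR day 0 (1.22 ± 0.64, adjusted p = 0.156).

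Wnt11, which drives convergent movements in vertebrate gastrulation through the beta-catenin independent branch, led the ligands at N2B27 day 0 in both libraries (73.1% of ligand FPKM in KO and 74.3% in WT). It held 6.21 FPKM in KO and 7.32 in WT at N2B27 day 6, against 6.86 FPKM in KO and 7.81 in WT at N2B27 day 0. In KSR Wnt11 held 0.992 FPKM in KO and 0.307 in WT at KSR day 4, against 1.83 FPKM in KO and 1.20 in WT at KSR day 0. It passed in neither medium (-0.10 in N2B27 and -0.63 in KSR). Wnt5a, the main ligand of Ror receptors, rose by 2.44 ± 0.22 in N2B27, where it stood at 3.48 FPKM in KO and 5.72 in WT at N2B27 day 6, against 0 FPKM in KO and 0.0193 in WT at N2B27 day 0, and by 1.03 ± 0.22 in KSR. Wnt3, required for gastrulation in mouse, rose by 2.19 ± 0.18 in N2B27 and 1.29 ± 0.18 in KSR, to at most 4.34 FPKM. Wnt4, a ligand of kidney and gonad development, and Wnt5b rose in both media and reached at most 2.34 FPKM, Wnt9a passed in N2B27 and not in KSR, to at most 3.59 FPKM, and Wnt6 fell by 1.34 on the log2 scale in KSR. Wnt6 reached 1 FPKM only at KSR day 0 and in KO at N2B27 day 6, so its fall is no evidence by itself.

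Of the 19 ligand genes, 4 pairs lie side by side. Wnt10b and Wnt1 are separated by 11706 bases on chromosome 15 of GRCm38, yet Wnt10b reached at most 0.427 FPKM and Wnt1 12.0 FPKM. Wnt9b and Wnt3, 24328 bases apart on chromosome 11, reached 0.306 and 4.34 FPKM. Wnt3a and Wnt9a, 16175 bases apart on chromosome 11 and on opposite strands, both rose in N2B27, to 6.49 FPKM in KO and 3.42 in WT for Wnt3a and 3.59 FPKM in KO and 1.53 in WT for Wnt9a. Wnt6 and Wnt10a, 6193 bases apart on chromosome 1, reached 2.20 and 0.213 FPKM.

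**Figure D2:**
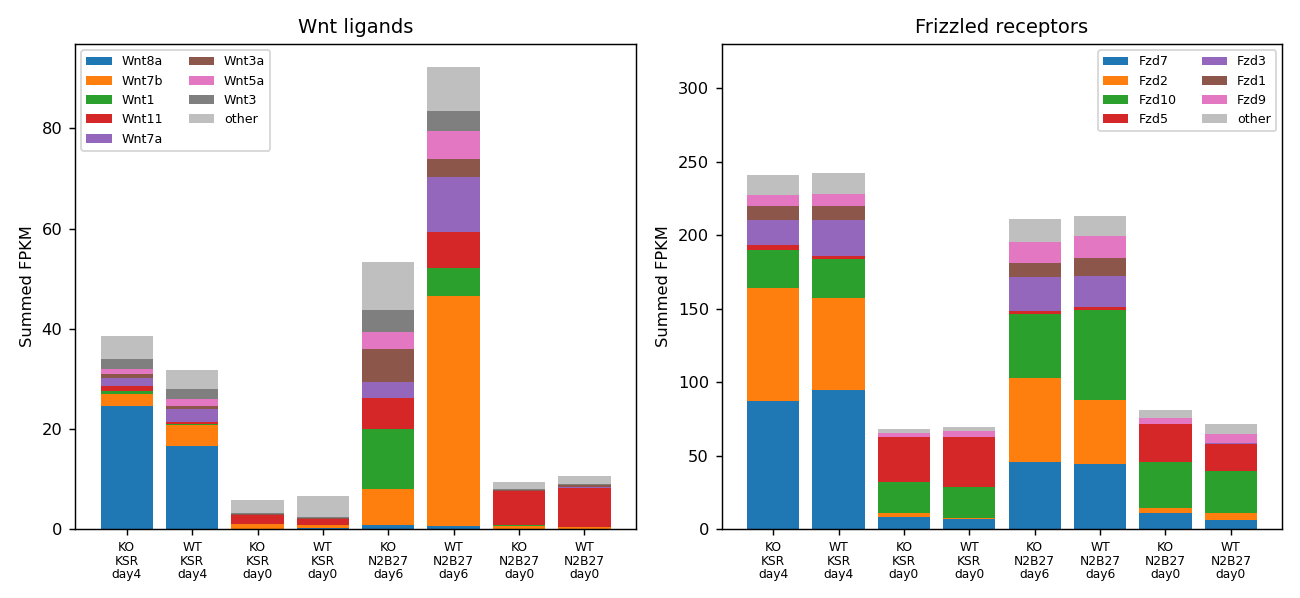
Summed FPKM of the 19 Wnt ligands (left) and the 10 frizzled receptors (right) in each of the 8 libraries, with KO left of WT, stacked by gene; each bar is 1 library, so there are no error bars. Wnt8a makes up most of the ligand bars at KSR day 4, and at N2B27 day 6 Wnt1 is the largest piece in KO and Wnt7b in WT. Among the receptors Fzd7 is the largest piece at KSR day 4 and Fzd5 at KSR day 0. At N2B27 day 6 it is Fzd2 in KO and Fzd10 in WT, and at N2B27 day 0 it is Fzd10.

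The set of frizzled receptors changed with induction: 8 of 10 rose and 1 fell in KSR, 9 rose and 1 fell in N2B27, against 28.5% up and 20.0% down of all tested genes in KSR and 29.7% and 26.2% in N2B27. Fzd1 and Fzd3 passed the filter only through induced libraries. Fzd5 (chr1:64730558-64737751), known in mouse for the yolk sac, the eye and intestinal crypts, was the receptor that fell. It held 3.24 FPKM in KO and 2.32 in WT at KSR day 4, against 30.3 FPKM in KO and 33.4 in WT at KSR day 0. In N2B27 Fzd5 held 1.68 FPKM in KO and 2.25 in WT at N2B27 day 6, against 25.5 FPKM in KO and 18.5 in WT at N2B27 day 0. All 4 day 0 libraries were above all 4 induced ones, with a change of -3.13 ± 0.22 in KSR (adjusted p = 7.09e-05) and -2.94 ± 0.22 in N2B27 (adjusted p = 7.56e-05).

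Fzd7 (chr1:59482424-59486955), a receptor described in human embryonic stem cells, took the first place among the frizzled genes of KSR cells. It held 86.9 FPKM in KO and 94.9 in WT at KSR day 4, against 8.48 FPKM in KO and 6.61 in WT at KSR day 0, a change of 3.43 ± 0.21 (adjusted p = 4.17e-05). In N2B27 it held 45.4 FPKM in KO and 44.6 in WT at N2B27 day 6, against 11.0 FPKM in KO and 6.21 in WT at N2B27 day 0, a change of 2.30 ± 0.21 (adjusted p = 0.000168). The induced libraries were above the day 0 libraries in both series. Fzd2, a receptor for Wnt5a, also rose in both media. In KSR it held 76.8 FPKM in KO and 62.1 in WT at KSR day 4, against 2.34 FPKM in KO and 1.10 in WT at KSR day 0 (4.73 ± 0.24, adjusted p = 2.49e-05). In N2B27 it held 57.6 FPKM in KO and 43.3 in WT at N2B27 day 6, against 3.53 FPKM in KO and 4.86 in WT at N2B27 day 0 (3.31 ± 0.24, adjusted p = 6.86e-05).

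Fzd3, which guides axon tracts together with planar cell polarity proteins, was low in stem cells and rose in both media. It held 17.3 FPKM in KO and 24.3 in WT at KSR day 4, against 0.307 FPKM in KO and 0.417 in WT at KSR day 0. In N2B27 Fzd3 held 23.6 FPKM in KO and 21.2 in WT at N2B27 day 6, against 0.294 FPKM in KO and 0.304 in WT at N2B27 day 0. The fitted changes were 3.98 ± 0.21 in KSR and 4.17 ± 0.21 in N2B27. Fzd1 did likewise (9.11 FPKM in KO and 9.91 in WT at KSR day 4, against 0.0735 FPKM in KO and 0.0894 in WT at KSR day 0), with changes of 3.28 ± 0.19 in KSR and 3.26 ± 0.19 in N2B27, where it held 8.98 FPKM in KO and 12.2 in WT at N2B27 day 6, against 0.155 FPKM in KO and 0.249 in WT at N2B27 day 0. Both genes passed the filter only through induced libraries, so their separation from the day 0 libraries is no evidence by itself.

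Fzd10, known from the dorsal neural tube, was already among the leading receptors of stem cells. It held 43.5 FPKM in KO and 61.2 in WT at N2B27 day 6, against 31.3 FPKM in KO and 28.6 in WT at N2B27 day 0 (0.77 ± 0.16, adjusted p = 0.00670), and 26.4 FPKM in KO and 26.5 in WT at KSR day 4, against 21.2 FPKM in KO and 21.2 in WT at KSR day 0 (0.30 ± 0.16, adjusted p = 0.166). The N2B27 change passed and the KSR change did not. Fzd9, expressed in neural precursors, held 14.6 FPKM in KO and 14.6 in WT at N2B27 day 6, against 3.47 FPKM in KO and 6.20 in WT at N2B27 day 0. In KSR Fzd9 held 7.29 FPKM in KO and 7.95 in WT at KSR day 4, against 2.71 FPKM in KO and 3.85 in WT at KSR day 0. It rose by 1.46 ± 0.21 in N2B27 and 1.02 ± 0.21 in KSR. Fzd8, an anterior neural receptor, stood at 7.80 FPKM in KO and 7.15 in WT at KSR day 4 and 7.60 FPKM in KO and 7.25 in WT at N2B27 day 6, against 1.25 FPKM in KO and 1.27 in WT at KSR day 0 and 3.62 FPKM in KO and 3.87 in WT at N2B27 day 0, with changes of 1.91 ± 0.17 in KSR and 0.83 ± 0.17 in N2B27. Fzd4 and Fzd6 also rose in both media and stayed between 1.68 and 5.75 FPKM in induced libraries.

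The co-receptors changed by less than 1 on the log2 scale. Lrp6 held 17.0 FPKM in KO and 18.1 in WT at KSR day 4, against 11.4 FPKM in KO and 12.5 in WT at KSR day 0. In N2B27 Lrp6 held 17.4 FPKM in KO and 17.4 in WT at N2B27 day 6, against 13.5 FPKM in KO and 9.51 in WT at N2B27 day 0. The rise was 0.52 ± 0.18 in KSR (adjusted p = 0.0478) and 0.58 ± 0.18 in N2B27 (adjusted p = 0.0296). Lrp5 held 14.4 FPKM in KO and 12.0 in WT at N2B27 day 6, against 26.6 FPKM in KO and 25.1 in WT at N2B27 day 0, where it fell by 0.92 on the log2 scale (adjusted p = 0.00149). In KSR it held 28.3 FPKM in KO and 20.9 in WT at KSR day 4, against 21.8 FPKM in KO and 20.7 in WT at KSR day 0 and did not pass (0.19 ± 0.14, adjusted p = 0.302).

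Of the R-spondin branch, which protects frizzled from degradation, Rspo1 and Lgr4 were the members that passed the filter. Lgr4 held 32.5 FPKM in KO and 36.3 in WT at KSR day 4, against 6.75 FPKM in KO and 6.58 in WT at KSR day 0. In N2B27 Lgr4 held 30.6 FPKM in KO and 37.8 in WT at N2B27 day 6, against 8.51 FPKM in KO and 7.99 in WT at N2B27 day 0. It rose by 2.20 ± 0.15 in KSR (adjusted p = 5.54e-05) and 1.92 ± 0.15 in N2B27 (adjusted p = 8.12e-05), with all 4 induced libraries above 30 FPKM. Rspo1, its ligand, held 8.09 FPKM in KO and 6.00 in WT at KSR day 4, against 0.380 FPKM in KO and 0.179 in WT at KSR day 0. In N2B27 Rspo1 held 5.49 FPKM in KO and 4.47 in WT at N2B27 day 6, against 0.233 FPKM in KO and 0.985 in WT at N2B27 day 0. The Rspo1 changes were 2.64 ± 0.29 in KSR and 1.93 ± 0.29 in N2B27.

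Sfrp2 (chr3:83766321-83774316), a secreted Wnt-binding protein and early marker of the mouse neural plate, had the highest level of the 53 genes in all 4 induced libraries. It held 316 FPKM in KO and 369 in WT at KSR day 4, against 6.16 FPKM in KO and 6.55 in WT at KSR day 0. In N2B27 Sfrp2 held 295 FPKM in KO and 625 in WT at N2B27 day 6, against 11.1 FPKM in KO and 9.72 in WT at N2B27 day 0. The change was 5.54 ± 0.27 in KSR (adjusted p = 2.33e-05) and 5.24 ± 0.27 in N2B27 (adjusted p = 1.92e-05). Ranked by FPKM among all symbols, Sfrp2 stood at rank 233 in KO and 194 in WT at KSR day 4 and at 234 in KO and 86 in WT at N2B27 day 6, and between ranks 7073 and 9021 at day 0.

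Sfrp1 (chr8:23411502-23449632), the leading member of the family in stem cells, went opposite ways in the 2 media. It held 95.4 FPKM in KO and 109 in WT at KSR day 4, against 45.2 FPKM in KO and 48.9 in WT at KSR day 0. In N2B27 Sfrp1 held 27.1 FPKM in KO and 29.5 in WT at N2B27 day 6, against 35.7 FPKM in KO and 43.0 in WT at N2B27 day 0. KSR day 4 libraries lay above, and N2B27 day 6 libraries below, the day 0 libraries of their series, with changes of 1.10 ± 0.10 (adjusted p = 0.000222) and -0.46 ± 0.10 (adjusted p = 0.00861). Frzb, a related inhibitor first known from cartilage, rose in both, by 2.97 ± 0.21 and 2.58 ± 0.21, and held 6.82 FPKM in KO and 8.07 in WT at KSR day 4 and 5.20 FPKM in KO and 8.41 in WT at N2B27 day 6, against 0.0250 FPKM in KO and 0.124 in WT at KSR day 0 and 0.0422 FPKM in KO and 0.571 in WT at N2B27 day 0. Sfrp4 fell in both media (to at most 1.03 FPKM), and Sfrp5 rose in KSR (adjusted p = 0.0395) to at most 1.74 FPKM.

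Dickkopf genes were low throughout. Dkk3, a divergent member whose link to Lrp is not settled, held 1.68 FPKM in KO and 1.43 in WT at KSR day 4, against 7.66 FPKM in KO and 5.63 in WT at KSR day 0. In N2B27 Dkk3 held 2.54 FPKM in KO and 2.03 in WT at N2B27 day 6, against 6.06 FPKM in KO and 6.60 in WT at N2B27 day 0. It fell by 1.57 on the log2 scale in KSR (adjusted p = 0.000805) and by 1.16 in N2B27 (adjusted p = 0.00256). Dkk1, the classical Lrp6 inhibitor, rose in N2B27 (1.58 ± 0.41, adjusted p = 0.0145), where it stood at 1.23 FPKM in KO and 4.57 in WT at N2B27 day 6, against 0.281 FPKM in KO and 0.0904 in WT at N2B27 day 0. The rise was 0.80 without the WT day 6 library. Dkk1 passed the filter only through the N2B27 day 6 libraries, where it is high, so its call is no evidence by itself.

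Among the nuclear factors, Tcf7l1 had the highest level of the Tcf/Lef class in all 8 libraries. This factor, a repressor of pluripotency genes in mouse stem cells, held 63.6 FPKM in KO and 77.2 in WT at KSR day 4, against 55.6 FPKM in KO and 48.8 in WT at KSR day 0. In N2B27 Tcf7l1 held 52.3 FPKM in KO and 45.8 in WT at N2B27 day 6, against 61.3 FPKM in KO and 49.7 in WT at N2B27 day 0. It passed in neither medium (0.42 ± 0.15 in KSR, adjusted p = 0.0579; -0.17 ± 0.15 in N2B27, adjusted p = 0.373). Lef1 (chr3:131110471-131224356), an activator of Wnt targets, rose in both. Its levels were 43.6 FPKM in KO and 35.7 in WT at KSR day 4, against 11.9 FPKM in KO and 4.50 in WT at KSR day 0. In N2B27 Lef1 held 14.0 FPKM in KO and 15.9 in WT at N2B27 day 6, against 1.74 FPKM in KO and 0.754 in WT at N2B27 day 0. Induced and day 0 libraries did not overlap within a series, and the change was 2.26 ± 0.31 in KSR (adjusted p = 0.00119) and 2.86 ± 0.31 in N2B27 (adjusted p = 0.000359).

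Tcf7 (chr11:52252371-52283014), the other activator of the class, fell where Lef1 rose. Its levels were 24.6 FPKM in KO and 20.9 in WT at KSR day 4, against 38.8 FPKM in KO and 37.4 in WT at KSR day 0. In N2B27 Tcf7 held 16.2 FPKM in KO and 11.7 in WT at N2B27 day 6, against 50.7 FPKM in KO and 46.6 in WT at N2B27 day 0. The change was -0.72 ± 0.13 in KSR (adjusted p = 0.00427) and -1.75 ± 0.13 in N2B27 (adjusted p = 7.97e-05). Tcf7l2 rose to 13.7 FPKM in KO and 15.6 in WT at KSR day 4 and 14.0 FPKM in KO and 15.8 in WT at N2B27 day 6, against 5.87 FPKM in KO and 4.88 in WT at KSR day 0 and 4.56 FPKM in KO and 4.58 in WT at N2B27 day 0, by 1.30 ± 0.17 in KSR and 1.51 ± 0.17 in N2B27.

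Axin2, the feedback scaffold that is itself a direct Wnt target, lay between 19.5 and 42.9 FPKM in all libraries. It held 20.9 FPKM in KO and 24.3 in WT at KSR day 4, against 30.7 FPKM in KO and 19.5 in WT at KSR day 0. In N2B27 Axin2 held 37.8 FPKM in KO and 42.9 in WT at N2B27 day 6, against 36.7 FPKM in KO and 25.9 in WT at N2B27 day 0. The induced and day 0 values overlapped in KSR, and the change passed in neither medium (-0.12 ± 0.23 in KSR and 0.38 ± 0.23 in N2B27, adjusted p = 0.699 and 0.203). Axin1, the constitutive scaffold, held 33.6 FPKM in KO and 27.9 in WT at KSR day 4, against 23.9 FPKM in KO and 23.4 in WT at KSR day 0. It lay just inside the threshold in KSR (0.36 ± 0.12, adjusted p = 0.0482) and did not pass in N2B27 (-0.18 ± 0.12), where it held 25.4 FPKM in KO and 23.7 in WT at N2B27 day 6, against 27.7 FPKM in KO and 28.2 in WT at N2B27 day 0.

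**Figure D3:**
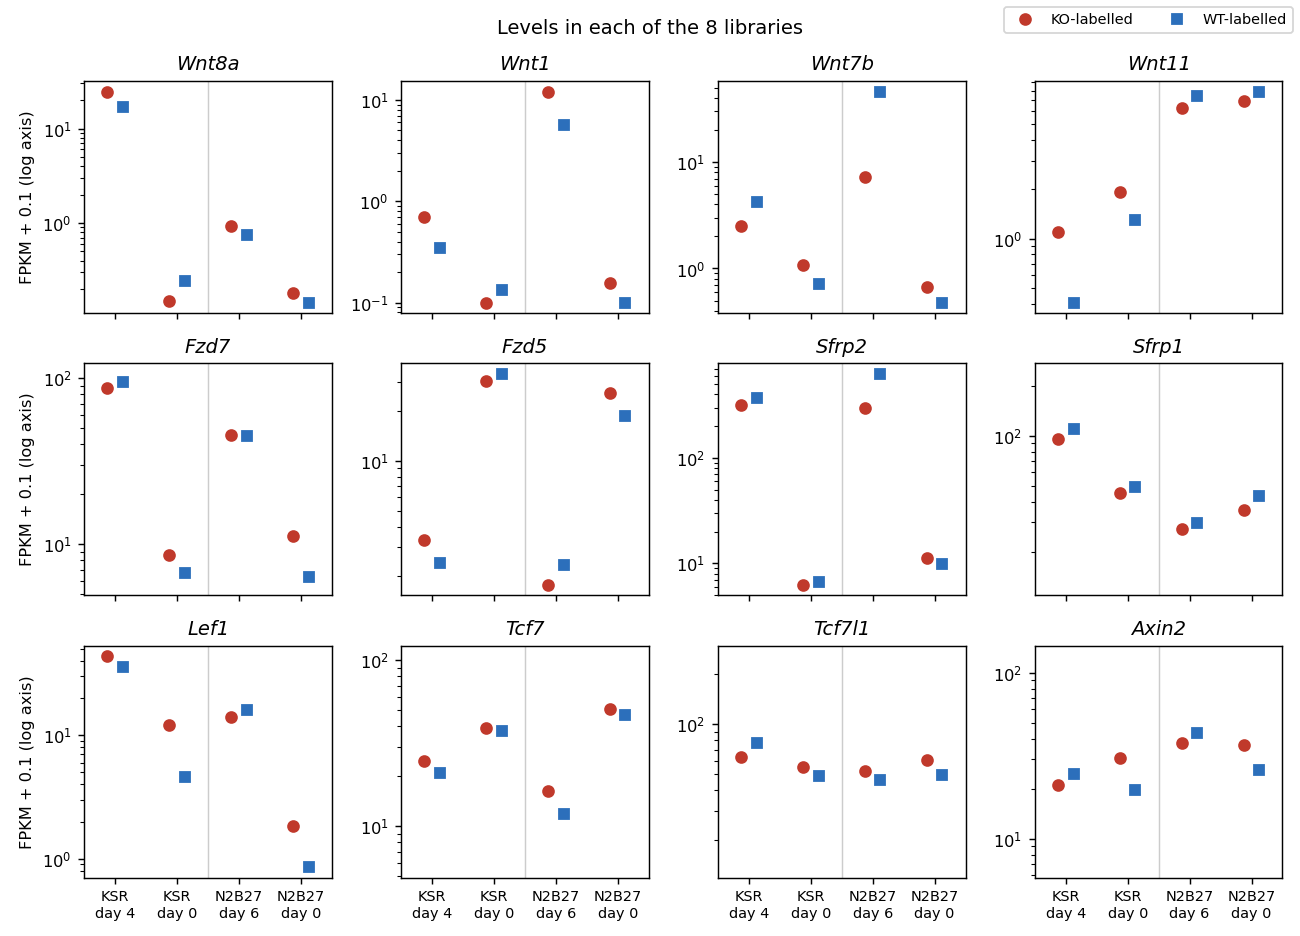
FPKM + 0.1 on a log axis for 12 Wnt genes in the 8 libraries (red circles KO, blue squares WT; conditions along the x axis, each induced condition left of its day 0). Each point is 1 library, so no error bars are drawn. Wnt8a is high at KSR day 4, Wnt1 and Wnt7b at N2B27 day 6, Fzd5 and Tcf7 at day 0, and Tcf7l1 and Axin2 stay within narrow ranges.

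Leaving out 1 library at a time ended some of these calls. In KSR the calls of Axin1, Fzd4, Fzd9, Lrp6, Sfrp4, Sfrp5, Wnt4, Wnt5a, Wnt5b and Wnt7a were lost without at least 1 of the 4 KSR libraries (adjusted p up to 0.301), and the other 19 of 29 held in all 13 alternatives. In N2B27 the calls of Dkk1, Fzd10, Lrp6, Sfrp4 and Wnt8a were lost without the WT day 0 library (adjusted p up to 0.176), those of Lrp6 and Wnt8a also without either day 6 library, that of Wnt8a without the KO day 0 library, that of Lrp6 without the WT library at KSR day 4, and that of Fzd4 without any 1 of the 8 libraries (adjusted p up to 0.158). The other 27 of 33 held in all 13 alternatives. Without the WT day 0 library the N2B27 change of Lrp6 was 0.31, without the WT day 6 library that of Fzd10 was 0.51, and without the KO library at KSR day 0 the KSR change of Sfrp5 was 0.41. The KSR call of Axin1 was lost without any 1 of the 8 libraries. That of Lrp6 was also lost without either N2B27 day 6 library, and that of Sfrp5 without either N2B27 day 0 library.

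Promoters of genes that moved in both media were read from RefSeq (GRCm38.p6), as 250 bases before to 50 after a transcript's start, and searched on both strands for CTTTGA, the core recognised by Tcf/Lef factors. It was found in 16.0% of the 32851 promoters of the table, in 6 of 43 promoters of the 35 Wnt genes that have an entry, in 4 of 20 promoters of genes that rose in both media and in 0 of 3 of genes that fell in both. The sequences shown are 3 with the core among the genes that rose, the gene with the highest level after induction (Sfrp2) and the receptor that fell (Fzd5), both without it in this window. Lef1 has 4 promoters here, and the one shown is a start inside the gene at chr3:131156044-131156343 (plus strand). Its core lies 180 and 120 bases before the start, and the other Lef1 promoters lack the core. Frzb is chr2:80447347-80447646 (minus strand), with the core 95 bases before the start, and Fzd1 is chr5:4758167-4758466 (minus strand), with the core 242 bases before it. Sfrp2 is chr3:83766071-83766370 (plus strand) and Fzd5 is chr1:64737701-64738000 (minus strand). Sequences run 5′ to 3′ along the gene's strand, and capitals mark the core CTTTGA or its reverse complement TCAAAG. A match here is a description of letters and not a bound site.
Lef1: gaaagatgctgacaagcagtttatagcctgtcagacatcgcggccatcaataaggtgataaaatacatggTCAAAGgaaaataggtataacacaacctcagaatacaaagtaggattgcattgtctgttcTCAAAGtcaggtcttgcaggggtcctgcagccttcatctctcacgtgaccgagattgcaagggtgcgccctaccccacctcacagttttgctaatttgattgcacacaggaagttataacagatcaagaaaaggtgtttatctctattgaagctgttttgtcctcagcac
Frzb: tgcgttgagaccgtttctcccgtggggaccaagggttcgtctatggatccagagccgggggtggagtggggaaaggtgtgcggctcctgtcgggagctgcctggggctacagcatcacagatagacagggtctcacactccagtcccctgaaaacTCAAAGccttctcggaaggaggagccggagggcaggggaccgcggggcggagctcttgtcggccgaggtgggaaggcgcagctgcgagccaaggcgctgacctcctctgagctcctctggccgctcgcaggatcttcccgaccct
Fzd1: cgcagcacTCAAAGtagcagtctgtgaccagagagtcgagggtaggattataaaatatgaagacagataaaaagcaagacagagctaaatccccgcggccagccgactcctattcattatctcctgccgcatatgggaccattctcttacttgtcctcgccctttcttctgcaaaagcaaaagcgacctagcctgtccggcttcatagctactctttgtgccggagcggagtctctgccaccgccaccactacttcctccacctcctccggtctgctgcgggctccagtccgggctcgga
Sfrp2: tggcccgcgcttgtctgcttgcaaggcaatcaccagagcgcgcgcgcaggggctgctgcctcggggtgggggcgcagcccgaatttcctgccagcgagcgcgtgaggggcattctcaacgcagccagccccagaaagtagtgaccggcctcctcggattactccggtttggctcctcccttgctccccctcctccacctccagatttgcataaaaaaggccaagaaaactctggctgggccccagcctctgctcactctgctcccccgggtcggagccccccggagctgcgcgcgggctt
Fzd5: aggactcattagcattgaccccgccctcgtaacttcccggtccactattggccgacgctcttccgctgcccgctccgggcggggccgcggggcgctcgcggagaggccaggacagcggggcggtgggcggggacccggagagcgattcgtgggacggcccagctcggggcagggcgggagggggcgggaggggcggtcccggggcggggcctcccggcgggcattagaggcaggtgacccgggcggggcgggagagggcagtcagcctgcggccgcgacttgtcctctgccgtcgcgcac

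The 2 induced states were then set against each other, a comparison in which medium and day cannot be told apart. Between N2B27 day 6 and KSR day 4, 6 of the 39 Wnt genes were higher and 6 lower, against 5.02% and 4.78% of all tested genes. Higher in N2B27 were 5 ligands (Wnt1, Wnt3, Wnt3a, Wnt5a and Wnt11) and Fzd10, and lower were Wnt8a, Sfrp1, Fzd7, Lrp5, Lef1 and Tcf7. Wnt8a stood at 0.829 FPKM in KO and 0.651 in WT at N2B27 day 6, against 24.5 FPKM in KO and 16.7 in WT at KSR day 4 (-3.61 ± 0.22, adjusted p = 0.00164). Wnt1 was at 12.0 FPKM in KO and 5.63 in WT at N2B27 day 6, against 0.591 FPKM in KO and 0.246 in WT at KSR day 4 (2.72 ± 0.28, adjusted p = 0.00517). Wnt1 and Wnt3a reached 1 FPKM only at N2B27 day 6, and Wnt8a only at KSR day 4. These genes entered the test only through the condition where they are high, so their calls are no evidence by themselves. The Sfrp1 difference was -1.82 ± 0.10 (adjusted p = 0.00129).

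Wnt11 was higher by 2.26 ± 0.26 (adjusted p = 0.00660), Wnt3a by 1.68 ± 0.29 (adjusted p = 0.0202) and Wnt5a by 1.35 ± 0.22 (adjusted p = 0.0173). The Lef1 difference was -1.35 ± 0.31 (adjusted p = 0.0423). Beside these ligands, marker sums also differed between the induced states. Roof plate and cortical hem markers, 4 genes led by Msx1, summed to 46.5 FPKM in KO and 42.3 in WT at N2B27 day 6, against 2.98 FPKM in KO and 2.82 in WT at KSR day 4. Midbrain-hindbrain markers, 5 genes, summed to 4.64 FPKM in KO and 12.0 in WT at N2B27 day 6, against 26.1 FPKM in KO and 15.5 in WT at KSR day 4. Fgf8 led that sum at KSR day 4 (15.1 FPKM in KO and 8.94 in WT). In WT, En2 and Pax2 went the other way, at 4.56 and 5.58 FPKM at N2B27 day 6, against 2.02 and 0.823 FPKM at KSR day 4. Fibroblast and smooth muscle markers summed to 215 FPKM in KO and 110 in WT at N2B27 day 6, against 95.8 FPKM in KO and 82.7 in WT at KSR day 4. Endoderm markers summed to 127 FPKM in KO and 212 in WT at N2B27 day 6, against 61.4 FPKM in KO and 90.6 in WT at KSR day 4. Cxcr4 alone held 91.5 FPKM in KO and 109 in WT at N2B27 day 6, against 43.2 FPKM in KO and 71.1 in WT at KSR day 4. Neural crest markers, led by Pax3, summed to 29.1 FPKM in KO and 59.0 in WT at N2B27 day 6, against 12.2 FPKM in KO and 13.3 in WT at KSR day 4. Foxd3 of that list went the other way (0.346 FPKM in KO and 1.38 in WT at N2B27 day 6, against 3.81 FPKM in KO and 2.08 in WT at KSR day 4), and Sox10 stayed under 1 FPKM. Pluripotent markers summed to 14.1 FPKM in KO and 48.7 in WT at N2B27 day 6, against 118 FPKM in KO and 68.7 in WT at KSR day 4. The part of these markers in the differences of the Wnt genes was not tested. Sfrp1 and Wnt8a kept their calls in all 13 alternatives, and the other 10 each lost theirs without at least 1 library (adjusted p up to 0.250, for Lef1). Without the KO KSR day 4 library 3 calls were left, without the WT KSR day 4 library 3, without the WT N2B27 day 6 library 5, and without any of the other 5 libraries between 8 and 11.

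The size of the response itself was compared between media, a comparison added after the values were seen. The N2B27 response (day 6 minus day 0) exceeded the KSR response (day 4 minus day 0) for 1 of the 39 Wnt genes and lay below it for 4, against 1.75% and 2.22% of all tested genes. Wnt1 responded more in N2B27, by 2.70 ± 0.39 (adjusted p = 0.0266). Wnt8a (-3.57 ± 0.31, adjusted p = 0.0103), Sfrp1 (-1.56 ± 0.15, adjusted p = 0.0119), Lrp5 (-1.11 ± 0.20, adjusted p = 0.0380) and Tcf7 (-1.02 ± 0.19, adjusted p = 0.0401) had lower responses in N2B27. Wnt8a rose less there and Tcf7 fell more, while Sfrp1 fell in N2B27 and rose in KSR, and Lrp5 fell in N2B27 and did not pass in KSR. Each of the 5 calls was lost without at least 1 library (adjusted p up to 0.165, for Tcf7). Wnt1 had entered the test only through N2B27 day 6 and Wnt8a only through KSR day 4, where they are high. Both calls were also lost without the filter on low values, as were those of Lrp5 and Tcf7. Without the KO or the WT library at either day 0, or the KO library at KSR day 4, 0 Wnt genes passed. Without the WT library at KSR day 4 only Wnt8a passed, without the WT library at N2B27 day 6 there were 3 calls, and without the KO library at N2B27 day 6 there were 7.

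**Figure D4:**
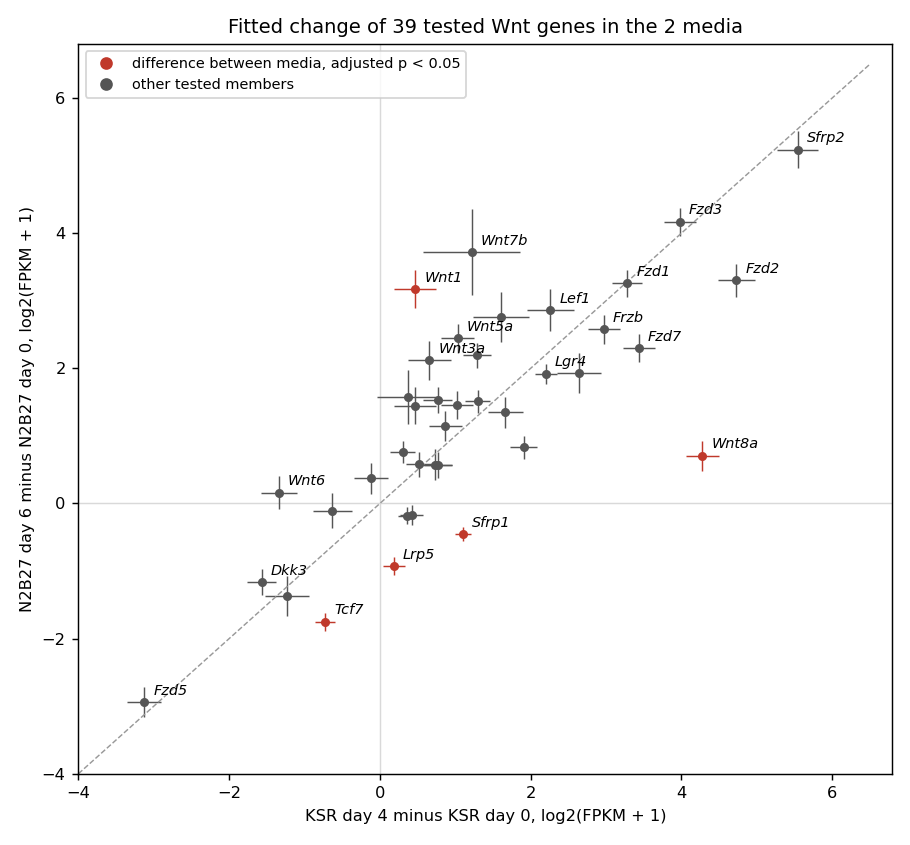
Fitted response of the 39 tested Wnt genes in KSR (x axis, day 4 minus day 0) and in N2B27 (y axis, day 6 minus day 0), both on log2(FPKM + 1), with bars of 1 standard error; points on the dashed line respond equally. Red points are the 5 genes whose responses differed, Wnt1 above the line and Wnt8a, Sfrp1, Lrp5 and Tcf7 below it.

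The day 0 libraries of the series, all in stem cell medium, differed in few Wnt genes. Between N2B27 day 0 and KSR day 0, 2 were higher and 1 lower, against 1.34% and 0.727% of all tested genes. Wnt11 stood at 6.86 FPKM in KO and 7.81 in WT at N2B27 day 0, against 1.83 FPKM in KO and 1.20 in WT at KSR day 0 (1.74 ± 0.26, adjusted p = 0.0322), and Fzd8 at 3.62 FPKM in KO and 3.87 in WT at N2B27 day 0, against 1.25 FPKM in KO and 1.27 in WT at KSR day 0 (1.07 ± 0.17, adjusted p = 0.0372). Lef1 was lower, at 1.74 FPKM in KO and 0.754 in WT at N2B27 day 0, against 11.9 FPKM in KO and 4.50 in WT at KSR day 0 (-1.94 ± 0.31, adjusted p = 0.0367). All 3 calls were lost when any 1 of the 8 libraries was left out (adjusted p up to 0.262).

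Between KO and WT libraries no Wnt gene passed. Over the 4 conditions 0 of the 39 were higher and 0 lower in KO, when 0% and 0.00626% of all tested genes were (1 gene in all), and the smallest adjusted p among the 39 was 0.945. At an unadjusted p under 0.05 stood 1 Wnt gene, Frzb, and 694 of all tested genes. Fitted differences of KO minus WT ranged between -0.66 ± 0.45 (Wnt7b) and 0.50 ± 0.22 (Lef1), with 95% intervals that reached 0.174 to 1.07 to either side. For 36 of the 39 the interval lay within 1 on the log2 scale either way. KO differed from WT in the same direction in all 4 pairs for 6 of 39 Wnt genes, Frzb, Fzd1, Lrp5, Sfrp1, Tcf7 and Wnt5a, which is 15.4%, against 12.2% of all tested genes.

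The response to induction differed between labels for 0 of the 39 in either direction (0% and 0% of all tested genes), and at an unadjusted p under 0.05 for 0 Wnt genes and 166 of all genes. On the log2(FPKM + 1) scale the largest interaction was that of Wnt7b, -1.81 ± 1.20 (95% interval -4.80 to 1.19), followed by that of Wnt7a, -0.98 ± 0.66 (KO response minus WT response, adjusted p = 1 for both). 

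Single pairs of libraries, which allow no test, showed 2-fold differences on the log2(FPKM + 1) scale at KSR day 0 and N2B27 day 6. At N2B27 day 6, 0 of the 39 were 2-fold higher in KO and 4 were 2-fold lower, against 1.47% and 3.44% of all tested genes. They were Wnt7b (7.07 FPKM in KO and 45.8 in WT, -2.53 on the log2 scale), Wnt7a (3.26 FPKM in KO and 11.0 in WT, -1.49), Sfrp2 (295 FPKM in KO and 625 in WT, -1.08) and Dkk1 (1.23 FPKM in KO and 4.57 in WT, -1.32). Other RNA differed within the same pair: neuron markers (3 genes) summed to 34.2 FPKM in KO and 104 in WT at N2B27 day 6, endoderm markers to 127 FPKM in KO and 212 in WT at N2B27 day 6, neural crest markers (4 genes) to 29.1 FPKM in KO and 59.0 in WT at N2B27 day 6 and pluripotent markers to 14.1 FPKM in KO and 48.7 in WT at N2B27 day 6, whereas neural progenitor markers summed to 319 FPKM in KO and 328 in WT at N2B27 day 6. Cxcr4 alone held 91.5 FPKM in KO and 109 in WT of the endoderm sum. Fibroblast and smooth muscle markers were higher in KO, at 215 FPKM in KO and 110 in WT at N2B27 day 6. Their part in the lower Wnt7a, Wnt7b, Sfrp2 and Dkk1 was not tested, and that WT library is the one whose column is named day 7. At KSR day 0 Lef1 was 2-fold higher in KO (11.9 FPKM in KO and 4.50 in WT, 1.24) and 0 were lower, against 0.883% and 0.896% of all tested genes. At N2B27 day 0, 0 of 39 differed 2-fold (0.783% higher and 1.55% lower of all tested genes), and at KSR day 4 likewise 0 of 39 (0.770% and 0.658%).

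Other genes of the pathway were read from 6 lists of genes outside the 53, whose counts stand against 28.5% up and 20.0% down of all tested genes in KSR and 29.7% and 26.2% in N2B27. Cer1, Trabd2b, Draxin, Rnf43, Ror1, Daam2, Apc2, Pygo1, Nkd2 and Msx1 entered the test only through induced libraries. Kremen2 and Cdx1 entered only through day 0 libraries. A share of a list that rose or fell is therefore no evidence by itself. Of the list of ligand secretion genes and extracellular Wnt inhibitors, 8 of 11 were tested. In KSR 4 rose and 2 fell, and in N2B27 5 rose and 1 fell (median change 0.77 and 1.44, against 0.08 and 0.04 for all tested genes). Wls, the carrier that takes Wnts to the cell surface, held 60.4 FPKM in KO and 75.3 in WT at KSR day 4, against 0.790 FPKM in KO and 0.535 in WT at KSR day 0. In N2B27 Wls held 81.9 FPKM in KO and 46.4 in WT at N2B27 day 6, against 2.53 FPKM in KO and 2.07 in WT at N2B27 day 0. It rose by 5.37 ± 0.25 in KSR (adjusted p = 2.09e-05) and 4.25 ± 0.25 in N2B27 (adjusted p = 3.03e-05). Notum, the enzyme that strips the lipid from Wnts, went the other way, with 1.78 FPKM in KO and 0.792 in WT at KSR day 4, against 27.2 FPKM in KO and 26.4 in WT at KSR day 0. In N2B27 Notum held 0.644 FPKM in KO and 0.440 in WT at N2B27 day 6, against 83.3 FPKM in KO and 62.1 in WT at N2B27 day 0. Its changes were -3.64 ± 0.19 and -5.57 ± 0.19 (adjusted p = 2.63e-05 and 6.70e-06). Porcn, which adds the lipid, rose in N2B27 (2.29 ± 0.23, adjusted p = 0.000256).

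Planar cell polarity genes and alternative receptors, 14 tested, rose in 7 cases and fell in 2 in KSR and rose in 7 and fell in 4 in N2B27 (median 0.65 and 0.64). Celsr2, a cadherin of that branch, held 48.4 FPKM in KO and 49.9 in WT at KSR day 4, against 0.412 FPKM in KO and 1.24 in WT at KSR day 0. In N2B27 Celsr2 held 69.8 FPKM in KO and 102 in WT at N2B27 day 6, against 2.25 FPKM in KO and 4.06 in WT at N2B27 day 0. It rose by 4.82 ± 0.19 in KSR and 4.39 ± 0.19 in N2B27. The paralogues Vangl1 and Vangl2, both core polarity proteins, moved in opposite directions. Vangl1 changed by -2.80 ± 0.23 in KSR and -1.88 ± 0.23 in N2B27, and Vangl2 by 2.16 ± 0.15 and 1.49 ± 0.15. In the cytoplasm, 14 genes of beta-catenin, its destruction complex and Dishevelled were tested, of which 7 rose and 0 fell in KSR and 10 rose and 1 fell in N2B27 (median 0.45 and 0.68). Ctnnb1, which encodes beta-catenin, held 437 FPKM in KO and 419 in WT at KSR day 4, against 340 FPKM in KO and 273 in WT at KSR day 0 (0.49 ± 0.13, adjusted p = 0.0170), a call lost without the WT library at day 0 or either library at day 4 (adjusted p up to 0.164). Of 10 nuclear cofactors 6 rose and 0 fell in each medium (median 0.56 and 0.63), among them Bcl9, which bridges beta-catenin to Pygopus (1.87 ± 0.23 in KSR and 1.78 ± 0.23 in N2B27). Of 8 tested cell surface regulators 2 rose and 1 fell in KSR and 5 rose and 1 fell in N2B27, with medians of 0.11 and 0.83. The KSR shares and median were close to or below those of all tested genes. The glypican Gpc3 rose by 1.14 ± 0.15 in KSR and 1.12 ± 0.15 in N2B27.

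Of 11 genes known as Wnt targets 9 were tested, of which 5 rose and 2 fell in KSR, and 5 rose and 3 fell in N2B27 (median 0.56 and 0.80). The falls were at shares near those of all tested genes. Cdx1, a posterior patterning factor, held 0 FPKM in KO and 0.0439 in WT at KSR day 4, against 31.4 FPKM in KO and 40.3 in WT at KSR day 0. In N2B27 Cdx1 held 0.0435 FPKM in KO and 0.0433 in WT at N2B27 day 6, against 44.8 FPKM in KO and 45.2 in WT at N2B27 day 0. All 4 induced libraries lay near 0, and Cdx1 passed the filter only through the day 0 libraries. Sp5, a transcription factor induced by Wnt in stem cells, held 1.89 FPKM in KO and 1.42 in WT at KSR day 4, against 36.2 FPKM in KO and 22.3 in WT at KSR day 0. In N2B27 Sp5 held 2.79 FPKM in KO and 8.23 in WT at N2B27 day 6, against 43.3 FPKM in KO and 31.6 in WT at N2B27 day 0. Both fell in both media, Cdx1 with changes of -5.16 ± 0.18 and -5.46 ± 0.18 and Sp5 with changes of -3.48 ± 0.44 and -2.69 ± 0.44 (KSR, then N2B27). Nkd1, an inhibitor of Dishevelled, rose instead, by 2.01 ± 0.22 in KSR and 3.51 ± 0.22 in N2B27, where it held 23.2 FPKM in KO and 22.8 in WT at N2B27 day 6, against 1.46 FPKM in KO and 0.800 in WT at N2B27 day 0. Msx1, a dorsal midline factor that is also in the roof plate list, held 32.2 FPKM in KO and 33.7 in WT at N2B27 day 6, against 0.729 FPKM in KO and 0.584 in WT at N2B27 day 0 (4.36 ± 0.19, adjusted p = 1.14e-05), and Fgf8, a signal of the primitive streak and the midbrain-hindbrain boundary, held 15.1 FPKM in KO and 8.94 in WT at KSR day 4, against 0.352 FPKM in KO and 0.383 in WT at KSR day 0 (3.21 ± 0.25, adjusted p = 9.77e-05). Msx1 reached 1 FPKM only at N2B27 day 6, where it is high, so its call is no evidence by itself. In KO against WT 0 genes of the 6 lists passed.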

How the data were processed

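RNA was prepared with a SMARTER mRNA kit and sequenced as paired reads on a NovaSeq, per the labels' protocols. STAR, Cufflinks and mm10 are named in the submitters' processing notes; versions, settings, the annotation and the use of strand were not given in the sources used here, so fragments of overlapping or antisense genes cannot be told apart. The deposited table holds FPKM per gene, normalized by the authors to length and library, with no counts, so counting error cannot be computed. It has 55188 rows; 110 repeats of a symbol were dropped, keeping the row with the highest mean, to leave 55078 symbols, of which 24645 are 0 in all 8 libraries. All 53 Wnt symbols matched 1 gene each of a GRCm38 annotation.

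Genes with at least 1 FPKM in at least 2 libraries (15965) were tested with limma 3.58.1 in R 4.3.3 on log2(FPKM + 1), with terms for genotype and condition over all 8 libraries, 3 residual degrees of freedom and a trended prior. The difference in response between labels used a response per genotype shared by both media, with each series of a genotype as a block and 2 residual degrees of freedom. P-values were adjusted over all tested genes (Benjamini-Hochberg, threshold 0.05). Values after ± are standard errors of fitted changes. The fit was tested on simulated data. Figures were drawn in Python 3.11.15 with matplotlib 3.10.9.

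The members, the pathway lists, the markers and the tests were chosen with earlier results of these data known. Values in every library were given for Wnt genes that passed in a comparison with a mean of at least 5 FPKM in some condition, for the leading gene of each role and for Dip2c. Wnt3, Wnt3a, Wnt4, Wnt5a, Wnt5b, Wnt6, Wnt9a, Dkk1, Fzd4, Fzd6, Sfrp4, Sfrp5 and Lgr5 were named after their values were seen where they fall outside that rule. Alternatives were a pseudocount of 0.1, no filter, a median log2 ratio scaling, a prior without trend, fits without the genotype or series term, and leaving out each library.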

Additional observations from a re-analysis of the deposited data

Results flagged for a closer look

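In 5 Wnt genes the change from day 0 differed between the media by a test of that difference (limma, adjusted over all tested genes), a comparison chosen after the data were seen. The N2B27 response minus the KSR response was 2.70 for Wnt1 and -3.57 for Wnt8a, on the log2(FPKM + 1) scale. It was -1.56 for Sfrp1, whose level fell in N2B27 and rose in KSR. It was -1.11 for Lrp5 and -1.02 for Tcf7. Wnt1 had entered the test only through N2B27 day 6 and Wnt8a only through KSR day 4, where they are high. Without the filter on low values both of these calls were lost, as were those of Lrp5 and Tcf7. Each response rests on 2 libraries per condition, KO and WT. Each difference points the same way in KO and in WT libraries, but the genes were picked from these same libraries, so this is no added support. Of the 5 calls, 0 were kept in all 13 alternatives. Medium and day changed together and cannot be told apart.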

How the results depend on the processing

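Across the 13 alternatives no called change of a Wnt gene turned its direction. Calls of Wnt genes kept in all of them were 19 of 29 in KSR, 27 of 33 in N2B27, 2 of 12 between induced states, 0 of 3 between day 0 libraries and 0 of 5 for the response difference. Without any filter on low values the counts of called Wnt genes were 4 between induced states (451 genes in all), 0 between day 0 libraries (65 genes) and 1 for the response difference (46 genes), and 0 genes differed between KO and WT. With a pseudocount of 0.1, 2 genes differed between KO and WT, and 29 of 82 fitted changes of Wnt genes moved by over 1.5 times. With a prior without trend 215 genes differed between day 0 libraries.

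Leaving out 1 library at a time, called Wnt genes ranged between 21 and 29 in KSR, 27 and 32 in N2B27, 3 and 11 between induced states, 0 and 0 between day 0 libraries, 0 and 7 for the response difference, 0 and 0 for KO against WT and 0 and 0 for the difference in response between labels. All called genes ranged between 4872 and 8094 in KSR, 6510 and 8227 in N2B27, 65 and 1055 between induced states, 2 and 125 between day 0 libraries, 1 and 543 for the response difference, 0 and 1 for KO against WT, and 0 and 2 for the difference in response between labels. The main counts were 7738, 8919, 1565, 330, 634, 1 and 0. Between day 0 libraries every 1 of the 8 removals ended all 3 calls, and the count of 330 genes fell to at most 125. Fewer residual degrees of freedom are part of each removal.

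The labels give no replicate numbers, so pairing rests on label and series. Without the replicate block (no genotype or series term) 8 Wnt genes passed for the response difference and 1 gene for the difference in response between labels, and 81 of 82 calls of Wnt genes held. Scaling by the median log2 ratio moved the median change of all genes by less than 0.1 and ended 2 of 82 calls. The table holds no counts, so the absolute depth behind a value is unknown.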
